A study of Mus musculus with 10 samples.

Results

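Notch signalling was followed through 10 genes of the mouse hippocampus, namely the ligands *Dll1* and *Jag1*, the receptors *Notch1*, *Notch2* and *Notch3*, the DNA-binding partner *Rbpj*, and the targets *Hes1*, *Hes5*, *Hey1* and *Hey2*. They were chosen by symbol from a table of 15900 genes measured by cap analysis of gene expression (CAGE), which counts tags at the capped starts of transcripts, and all 10 had a row and passed the filter on low values. The symbols used no measured value beyond a gene's presence, but the list was selected with earlier results of these data in view, and the measured value among them was the low *Hes5* of SE 2 days mice. That comparison of *Hes5* with pre-SE mice is therefore given as values without a test.

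Whole hippocampi of 10 male ICR mice aged 9 to 10 weeks were profiled in 5 groups of 2 mice. Status epilepticus (SE) was induced with intraperitoneal pilocarpine (PILO) after methyl scopolamine and was stopped with diazepam. SE 6 h and SE 2 days mice were sampled at these times without levetiracetam (LEV), an antiseizure drug, whereas SE + LEV 6 h mice had received oral LEV 1 time and SE + LEV 2 days mice 5 times by then. Pre-SE mice had no SE, and the labels call them untreated although the methods describe saline in place of PILO for control mice. Values are CPM, that is, tags scaled to a fixed total over the listed genes of each library. Tissue was bulk, so that fewer cells of a type and less RNA per cell cannot be told apart.

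The Notch receptors are membrane proteins that are cut when a ligand on a neighbouring cell binds, and the freed intracellular domain enters the nucleus and joins RBPJ and a Mastermind-like protein to switch on Hes and Hey genes. These targets are basic helix-loop-helix repressors that hold neural precursors back from becoming neurons. In the adult hippocampus the pathway is known for keeping stem cells of the dentate gyrus undifferentiated, and it also acts in astrocytes and in the endothelial and mural cells of vessels.

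The sequence just before the start of a target shows where RBPJ could meet DNA, and RefSeq windows (GRCm38.p6) of 250 bases before the start were found for 8 of the 10 genes, with none for *Hes1* and *Hey1*. The windows of the targets *Hes5* and *Hey2* and the upstream window of *Rbpj* itself are printed 5′ to 3′ on the gene's strand, with the core of the RBPJ site (TGGGAA, or TTCCCA when it lies on the other strand) in capitals.
Hes5, chr4:154960673-154960922, plus strand: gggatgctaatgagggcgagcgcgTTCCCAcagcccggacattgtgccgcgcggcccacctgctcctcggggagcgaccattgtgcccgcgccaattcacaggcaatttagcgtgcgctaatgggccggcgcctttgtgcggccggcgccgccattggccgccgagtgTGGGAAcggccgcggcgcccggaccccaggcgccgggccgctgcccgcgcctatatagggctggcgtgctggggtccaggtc
Hey2, chr10:30842784-30843033, minus strand: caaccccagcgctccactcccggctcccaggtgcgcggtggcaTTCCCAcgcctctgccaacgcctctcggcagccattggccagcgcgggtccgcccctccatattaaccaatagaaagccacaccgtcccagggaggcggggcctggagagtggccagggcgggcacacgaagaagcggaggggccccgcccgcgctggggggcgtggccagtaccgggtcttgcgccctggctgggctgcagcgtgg
Rbpj, chr5:53590096-53590345, plus strand: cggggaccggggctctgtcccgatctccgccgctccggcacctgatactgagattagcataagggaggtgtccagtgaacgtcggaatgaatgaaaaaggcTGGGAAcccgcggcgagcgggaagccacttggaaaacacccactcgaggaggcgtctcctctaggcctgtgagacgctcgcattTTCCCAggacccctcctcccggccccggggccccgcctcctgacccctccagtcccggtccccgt

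In the *Hes5* window the core occurred 2 times, at 82 to 77 bases before the start on the printed strand and at 226 to 221 bases on the other, and both copies lay within the longer GTGGGAA. The *Hey2* window held 1 core, at 207 to 202 bases on the other strand and also within GTGGGAA. The *Rbpj* window held 2, at 149 to 144 bases on the printed strand and at 65 to 60 bases on the other, neither within GTGGGAA. A window of a second *Rbpj* start, at chr5:53590236-53590485, shared 1 of these. No core was found in these windows of *Dll1*, *Jag1*, *Notch1*, *Notch2* or *Notch3*. Among all 32851 windows of this length in the table, 21.6% held TGGGAA and 5.42% held GTGGGAA, on either strand. The N-box CACNAG, to which Hes proteins can bind, was found in the windows of *Notch1*, *Notch2* and *Notch3* and in 36.7% of all windows, and the E-box CANNTG in those of *Dll1*, *Jag1*, *Rbpj*, *Hes5* and *Hey2* and in 66.2% of all. The matches describe letters, not binding.

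The recovered tag totals ran from 10540698 to 51710968 per library, so that 3 tags, the limit of detection used here, were worth 0.058 to 0.285 CPM, and the 10 genes lay above this in every library. Markers of the choroid plexus, an epithelium beside the hippocampus, summed to between 1346 and 4883 CPM over 6 genes in 4 libraries (pre-SE 2, SE 6 h 2, SE + LEV 6 h 1 and SE + LEV 2 days 1) and to between 73.08 and 124.6 CPM in the other 6. Among 15851 genes tested, 2.96% were called in SE 6 h against pre-SE mice, 5.66% in SE 2 days against pre-SE mice, 0.0126% in SE + LEV 6 h against SE 6 h mice and 0% in SE + LEV 2 days against SE 2 days mice. A gene was called at an adjusted p of at most 0.05 from limma on log2(CPM + 0.1), and logFC is a difference on this scale, which understates changes of low genes. With 2 mice against 2 an exact two-sided permutation test cannot give a p under 0.333, and the p-values given measure the spread between these mice as shared across genes and groups.

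*Hes5* was the gene that differed most between groups, and its CPM was below both pre-SE mice in all 8 mice after SE. *Hes5* encodes a repressor that is a direct Notch target in neural stem cells and astroglia. Its CPM before SE was 19.97 and 36.22. Mice at 6 h had 5.0 and 4.93 without LEV against 5.78 and 9.49 under LEV, and after 2 days 4.49 and 2.10 without LEV against 4.34 and 10.88 under LEV. These values rest on 44 to 1873 tags.

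Against pre-SE mice, *Hes5* fell in SE 6 h mice by 2.41 on the log2 scale (SE of the logFC 0.52, adjusted p = 0.038, limma, 2 of 2 mice below both pre-SE mice), to 17.7% of the pre-SE mean. It was the 1 gene of the 10 called in this comparison, where 0.202% of all genes tested were called lower. This call and the tests of *Hes5* in SE + LEV mice use the same pre-SE mice as the difference known beforehand. Their p-values are therefore not free of the way the list was chosen. In SE 2 days mice, which share the pre-SE mice as reference, the logFC of *Hes5* was -3.09 (SE of the logFC 0.52) and the mean was 11.7% of that of pre-SE mice. SE + LEV mice had means of 27.2% at 6 h and 27.1% at 2 days of the pre-SE mean, with logFC of -1.85 and -1.95 against pre-SE mice and adjusted p of 0.24 and 0.098 (limma). The 6 h call was lost without any 1 of the mice of the pre-SE, SE 6 h and SE + LEV 6 h groups (adjusted p 0.053 to 0.26, limma), and over all 22 alternatives the adjusted p ran from 9.3e-05 to 0.56 with logFC of -2.84 to -1.98. Without the 4 libraries rich in choroid plexus markers, which leaves 1 mouse in each of these groups, the logFC was -1.98 at 6 h, which was not called, and -2.66 at 2 days.

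In order of mean CPM, *Hes5* was highest in pre-SE mice (28.1 ± 11.5, SD, n = 2), followed by SE + LEV 6 h (7.63 ± 2.62), SE + LEV 2 days (7.61 ± 4.62), SE 6 h (4.96 ± 0.0495) and SE 2 days mice (3.29 ± 1.69). Neighbours in this order overlapped except pre-SE and SE + LEV 6 h mice, and SE 6 h and SE 2 days mice. With LEV the logFC against mice without it was 0.57 at 6 h, where the groups did not overlap, and 1.14 at 2 days, where they did (adjusted p = 1 for both, limma). Comparisons of *Hes5* that use SE 2 days mice include the low values known beforehand. Nothing is read from the 2 days difference. *Hes5* lies at chr4:154335032-154336480 (mm9, plus strand, 2 exon blocks) and is overlapped by RP24-89N4.5 on the minus strand, and as the use of strand in the counting is not stated, tags of the pair cannot be told apart.

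**Figure D1:**
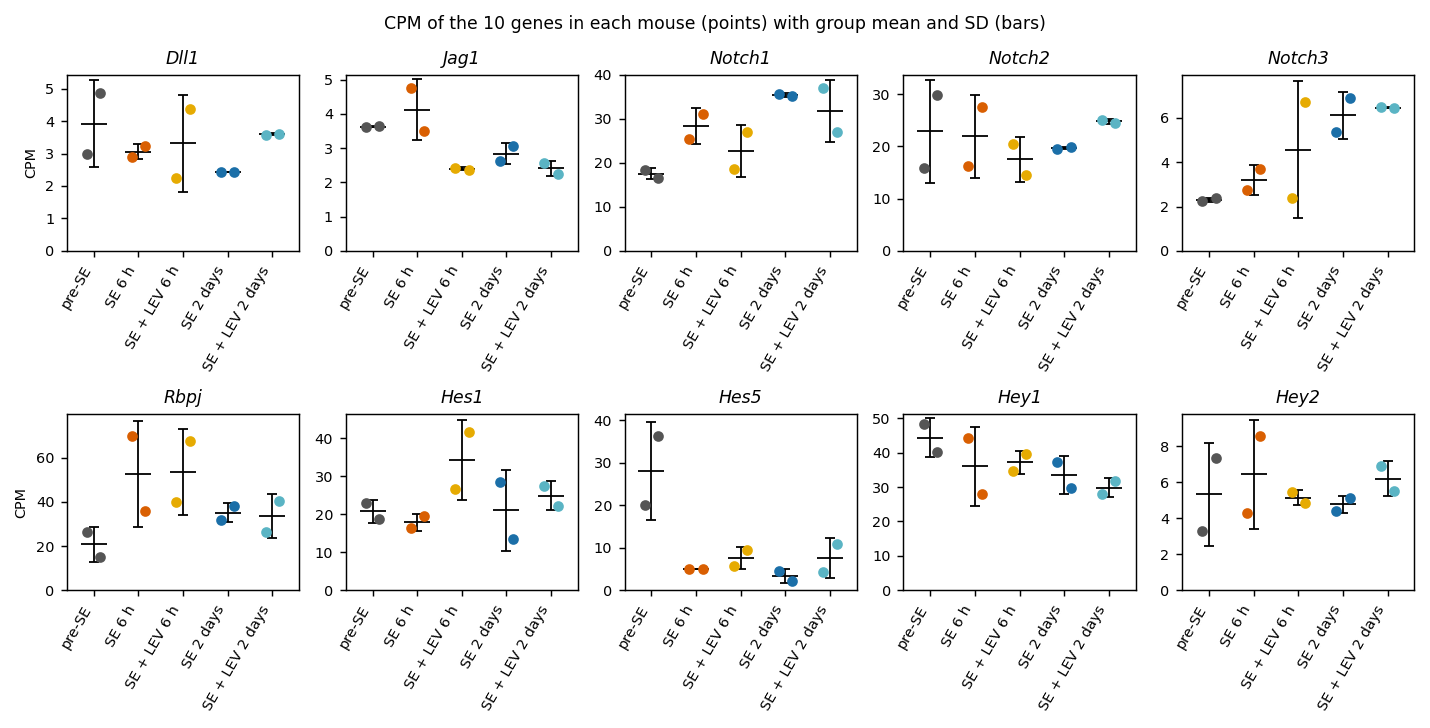
CPM (vertical axes, each from 0) of the 10 genes in the 5 groups, where points are mice and bars are group means with SD (n = 2). *Hes5* lies between 19.97 and 36.22 in pre-SE mice and at or below 10.88 in all other mice, whereas *Notch1*, *Notch3* and *Rbpj* are lowest in pre-SE mice.

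Marker lists of astrocytes, neural stem and progenitor cells and neurons were read beside *Hes5*. The 12 astrocyte markers summed to 3126 to 3726 CPM before SE, 3150 to 3822 at 6 h and 4156 to 5528 at 2 days without LEV, and 0 of them were called lower against pre-SE mice at either time, whereas *Gfap* and *Aqp4* were called higher at 2 days. The sum at 2 days was in large part *Gfap*, at 245.62 and 230.22 CPM before SE and 2281.84 and 3642.11 CPM at 2 days. Without *Gfap*, the other 11 markers summed to 2896 to 3480 CPM before SE, 2755 to 3039 at 6 h and 1874 to 1886 at 2 days, so that this sum was lower at 2 days in both mice, as *Hes5* was. A large part of this sum was *Slc1a2*, an astrocyte glutamate transporter, at 1546.80 and 1484.23 CPM before SE and 786.25 and 808.71 CPM at 2 days. Of the 11 markers without *Gfap*, 7 had a negative and 4 a positive logFC at 2 days, beside 52.8% negative over all genes. In SE 2 days mice 5 of the 11 lay below pre-SE mice without overlap, beside 4064 of all 15851 genes tested. Nothing particular to these markers is read from this count. The median logFC of the 12 markers was 0.09 at 6 h and -0.23 at 2 days. Of 10 neural stem and progenitor markers, 8 had a row. Their sum was 90.7 to 121 CPM before SE, 76.4 to 81.3 at 6 h and 123 to 139 at 2 days, with 0 called at 6 h. In SE 2 days mice *Nes*, *Mki67* and *Top2a* of this list were called higher and *Neurod1* lower, and *Mki67* was listed at 0 in 1 SE 6 h library. The 8 neuron markers summed to 9146 to 10223 CPM before SE, 5868 to 8704 at 6 h and 5057 to 6212 at 2 days, with 0 called. The part of these cells in the values of *Hes5* was not tested.

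The other Hes gene, *Hes1*, did not follow *Hes5*. *Hes1* encodes a repressor that oscillates in neural progenitors and responds to several pathways besides Notch. Its CPM before SE was 22.93 and 18.64. The 6 h values were 16.36 and 19.46 without LEV against 26.75 and 41.65 under LEV, and after 2 days 28.49 and 13.52 without LEV against 27.55 and 22.22 under LEV. Against pre-SE mice the logFC was -0.21 at 6 h and -0.07 at 2 days (SE of the logFC 0.37, adjusted p = 0.81 and 0.94, limma), and the groups overlapped. The 2 SE + LEV 6 h mice lay above both SE 6 h mice and both pre-SE mice. Their logFC against SE 6 h mice was 0.90 (SE of the logFC 0.37, unadjusted p = 0.034, adjusted p = 1, limma). In order of mean CPM, *Hes1* went from SE + LEV 6 h (34.2 ± 10.5, SD, n = 2) through SE + LEV 2 days, SE 2 days and pre-SE to SE 6 h mice (17.9 ± 2.19), and all neighbours overlapped. *Hes1* lies at chr16:30064470-30067882 (mm9, plus strand), without an overlapping gene.

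The Hey genes, whose products are repressors best known from vessels and heart and also made in the brain, were not called in any of the 9 comparisons. The CPM of *Hey1* before SE was 48.32 and 40.28. After 6 h it was 44.17 and 27.89 without LEV against 34.75 and 39.56 under LEV, and after 2 days 37.40 and 29.66 without LEV against 27.91 and 31.71 under LEV. Pre-SE mice were thus highest for *Hey1*, and both SE 2 days mice and all 4 SE + LEV mice lay below them. The logFC of *Hey1* against pre-SE mice was -0.33 at 6 h and -0.40 at 2 days without LEV, and -0.25 and -0.57 with LEV (SE of each logFC 0.27, adjusted p from 0.47 to 0.78, limma). That of *Hey2* before SE was 3.31 and 7.35. Mice at 6 h had 4.30 and 8.56 without LEV against 5.45 and 4.84 under LEV, and after 2 days 4.41 and 5.11 without LEV against 6.90 and 5.50 under LEV. All neighbours in the order of *Hey2* means overlapped. With LEV at 2 days both mice were above both SE 2 days mice for *Hey2* (logFC 0.37, SE of the logFC 0.45, adjusted p = 1, limma). *Hey1* lies at chr3:8663362-8667039 and *Hey2* at chr10:30552165-30562607 (mm9, both minus strand), neither with an overlapping gene.

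Among the receptors, *Notch1* and *Notch3* were lowest in pre-SE mice, and all 8 mice after SE lay above both pre-SE mice for each gene, although neither was called by limma. The margin was very small for SE + LEV 6 h mouse 1. It had 18.54 CPM of *Notch1* against 18.38 in the higher pre-SE mouse, and 2.39 CPM of *Notch3* against 2.38. The share of all genes with all 8 mice above is not given, so nothing particular to these receptors is read from the pattern. Without LEV, 49.9% of all genes at 6 h and 52% at 2 days did not overlap pre-SE mice, in either direction. *Notch1*, a receptor of neural stem cells and of endothelium, had before SE a CPM of 18.38 and 16.61. The 6 h values were 25.56 and 31.24 without LEV against 18.54 and 26.94 under LEV, and after 2 days 35.78 and 35.20 without LEV against 36.94 and 26.94 under LEV. Both SE groups thus lay apart from pre-SE mice for *Notch1*, and SE 2 days mice also above SE 6 h mice.

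The logFC of *Notch1* against pre-SE mice was 0.69 in SE 6 h mice (SE of the logFC 0.27, unadjusted p = 0.03, adjusted p = 0.22, limma) and 1.02 in SE 2 days mice (SE of the logFC 0.27, unadjusted p = 0.0038, adjusted p = 0.059, limma). At 2 days it was called by edgeR (adjusted p = 0.049) and DESeq2 (adjusted p = 0.0091) on the recovered tags, within a range of 0.0091 to 0.29 over the alternatives. Under LEV its logFC from pre-SE mice was 0.35 at 6 h and 0.85 at 2 days (adjusted p = 0.69 and 0.20, limma), and neither LEV group was apart from the SE group of its time. The order of means ran from SE 2 days (35.5 ± 0.41, SD, n = 2) through SE + LEV 2 days, SE 6 h and SE + LEV 6 h to pre-SE mice (17.5 ± 1.25), and only the last of these lay apart from its neighbour. *Notch1* lies at chr2:26313423-26372183 (mm9, minus strand) and is overlapped on the opposite strand by 0610009E02Rik and Gm13568.

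*Notch3*, a receptor of mural cells around vessels, had before SE a CPM of 2.24 and 2.38. After 6 h it was 2.73 and 3.70 without LEV against 2.39 and 6.74 under LEV, and after 2 days 5.38 and 6.88 without LEV against 6.49 and 6.45 under LEV. The 4 mice at 2 days thus lay above both SE 6 h mice too. Its logFC against pre-SE mice was 0.44 at 6 h and 1.36 at 2 days without LEV (SE of each logFC 0.46, unadjusted p = 0.35 and 0.014, adjusted p = 0.65 and 0.13, limma). With LEV it was 0.78 at 6 h and 1.45 at 2 days (unadjusted p = 0.12 and 0.0099, adjusted p = 0.62 and 0.19, limma). DESeq2 called *Notch3* at 2 days against pre-SE mice without LEV (adjusted p = 0.028, range over the alternatives 0.028 to 0.55) and with LEV (adjusted p = 0.038, range 0.038 to 0.67). *Notch3* lies at chr17:32257765-32303825 (mm9, minus strand) and is overlapped on the opposite strand by Gm17276.

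Markers of vessel cells, which carry these receptors, were read beside them. The 10 endothelial markers summed to 87.3 to 89.9 CPM before SE, 139 to 216 at 6 h and 133 to 151 at 2 days without LEV. Of these, *Cdh5* and *Esam* were called higher at 6 h, and no marker at 2 days. The 10 mural cell markers summed to 98.7 to 132 CPM before SE, 113 to 157 at 6 h and 138 to 150 at 2 days, with 0 called. The part of these cells in the values of the receptors was not tested.

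*Notch2*, a receptor broadly expressed in glia and vessels, had before SE a CPM of 15.93 and 29.88. Mice at 6 h had 16.26 and 27.48 without LEV against 20.50 and 14.52 under LEV, and after 2 days 19.59 and 19.87 without LEV against 25.12 and 24.48 under LEV. The wide pairs before SE and at 6 h overlapped all other groups. Against pre-SE mice the logFC was -0.05 at 6 h and -0.14 at 2 days (SE of each logFC 0.36), and both SE + LEV 2 days mice lay above both SE 2 days mice (logFC 0.33, adjusted p = 1, limma). The sign of the 6 h difference changed with median-of-ratios rescaling. *Notch2* lies at chr3:97817461-97954290 (mm9, plus strand) and has no overlapping gene in the annotation.

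*Rbpj* encodes the protein that carries the Notch intracellular domain on DNA, and it was lowest in pre-SE mice. Its CPM before SE was 26.45 and 15.10. The 6 h values were 69.60 and 35.70 without LEV against 39.81 and 67.45 under LEV, and after 2 days 31.93 and 37.97 without LEV against 26.56 and 40.46 under LEV. All 8 mice after SE lay above both pre-SE mice, by a small margin for the lower SE + LEV 2 days mouse. The share of all genes with this pattern is not given. Against pre-SE mice the logFC at 6 h was 1.31 without LEV and 1.37 under LEV (SE of each logFC 0.41, unadjusted p = 0.0091 and 0.0072, adjusted p = 0.14 and 0.27, limma). DESeq2 called both (adjusted p = 0.0095, range over the alternatives 0.0095 to 0.53, and adjusted p = 0.032, range 0.032 to 0.94). At 2 days the logFC was 0.80 without LEV and 0.71 with LEV (adjusted p = 0.32 and 0.64, limma). Mean CPM ran from 53.6 ± 19.5 (SD, n = 2) in SE + LEV 6 h mice to 20.8 ± 8.03 in pre-SE mice, and only pre-SE mice lay apart from their neighbour in this order. *Rbpj* lies at chr5:53947018-54048684 (mm9, plus strand), without an overlapping gene.

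The ligands were low and differed little. *Dll1*, a Delta-like ligand made by neural progenitors, had before SE a CPM of 2.97 and 4.87. After 6 h it was 2.89 and 3.22 without LEV against 2.26 and 4.36 under LEV, and after 2 days 2.42 and 2.44 without LEV against 3.57 and 3.61 under LEV. SE 2 days mice were the lowest of the 5 groups for *Dll1* and lay apart from pre-SE, SE 6 h and SE + LEV 2 days mice. The logFC of *Dll1* in SE 2 days mice was -0.63 against pre-SE mice (SE of the logFC 0.40, adjusted p = 0.45, limma), and in SE + LEV 2 days mice it was 0.54 against SE 2 days mice (adjusted p = 1, limma). *Dll1* lies at chr17:15504318-15513836 (mm9, minus strand) and is overlapped on the opposite strand by A930024N18Rik.

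*Jag1*, a Jagged ligand of astrocytes and vessels, had before SE a CPM of 3.62 and 3.65. Mice at 6 h had 4.75 and 3.49 without LEV against 2.43 and 2.37 under LEV, and after 2 days 2.63 and 3.06 without LEV against 2.56 and 2.26 under LEV. Among the 10 genes it was the only one for which both SE + LEV mice lay below both SE mice at each time. At 2 days the nearest mice of the groups had 2.56 and 2.63 CPM. The share of all genes with this order at both times is not given, and nothing is read from it. The logFC of *Jag1* with LEV was -0.74 at 6 h (SE of the logFC 0.33, unadjusted p = 0.051, adjusted p = 1, limma) and -0.23 at 2 days (adjusted p = 1, limma). *Jag1* lies at chr2:136907192-136942380 (mm9, minus strand), and the library with the fewest tags of it had 25.

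**Figure D2:**
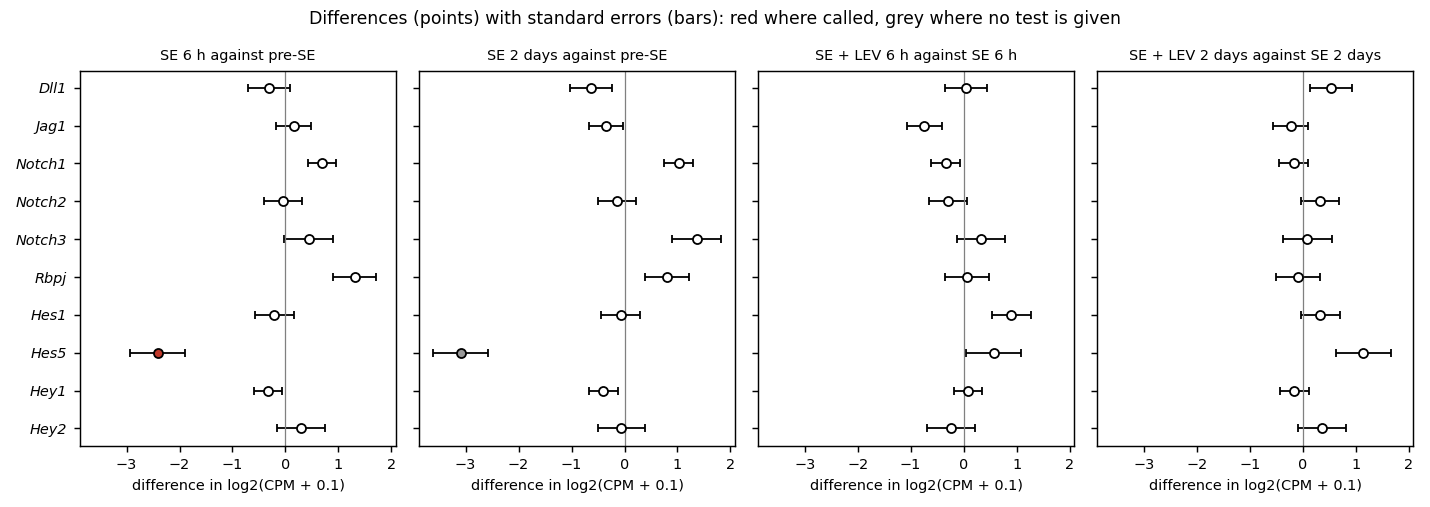
Differences in log2(CPM + 0.1) (horizontal axes) of the 10 genes (rows) in 4 comparisons, with bars for the standard error. The red point is *Hes5* in SE 6 h against pre-SE mice (-2.41, called), the grey point is *Hes5* in SE 2 days against pre-SE mice (-3.09, no test given), and the open points were not called.

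For the effect of SE, the logFC of the 10 genes had its median at 0.06 (6 h) and -0.11 (2 days), beside -0.13 and -0.03 over all genes tested. At 6 h, *Notch1*, *Notch3* and *Rbpj* lay above and *Hes5* below pre-SE mice without overlap, that is 4 of 10 beside 49.9% of all genes. At 2 days, *Notch1*, *Notch3* and *Rbpj* lay above and *Dll1*, *Jag1*, *Hes5* and *Hey1* below, that is 7 of 10 beside 52% of all genes. The count at 2 days includes *Hes5*, whose difference there was known when the list was drawn up, and nothing is read from it. Between SE 2 days and SE 6 h mice 0 of the 10 were called by limma, beside 4.25% of all genes, and the logFC ran from -0.67 for *Hes5* to 0.92 for *Notch3*. The value of *Hes5* here uses the SE 2 days mice whose low level was known beforehand. At an unadjusted p under 0.05 there was 0 of the 10, beside 20.1% of all genes, and edgeR and DESeq2 also called 0.

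For the effect of LEV, 0 of the 10 genes were called by limma at either time, and edgeR and DESeq2 also called 0. At an unadjusted p under 0.05 there was 1, *Hes1*, at 6 h, beside 4.58% of all genes, and 0 at 2 days, beside 2.7%. At 6 h both SE + LEV mice lay above both SE mice for *Hes1* and *Hes5* and below for *Jag1*, that is 3 of 10 beside 29.5% of all genes. At 2 days they lay above for *Dll1*, *Notch2* and *Hey2* and below for *Jag1*, that is 4 of 10 beside 27.4%. The median logFC over the 10 was 0.05 at 6 h and 0.21 at 2 days, beside 0.04 at both times over all genes. The LEV effect at 2 days differed from that at 6 h by -0.57 (*Hes1*) to 0.62 (*Notch2*) on the log2 scale, and 0 of the 10 were called by limma, edgeR or DESeq2, with 0% of all genes called, and 0 had an unadjusted p under 0.05, beside 2.38%.

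SE + LEV mice were also compared with pre-SE mice. Of the 10 genes 0 were called by limma at 6 h, beside 0.322% of all genes, and 0 at 2 days, beside 2.85%. Unadjusted p-values under 0.05 were found for 2 at 6 h (*Rbpj* higher and *Hes5* lower), beside 9.38% of all genes, and for 3 at 2 days (*Notch1* and *Notch3* higher and *Hes5* lower), beside 10.8%. DESeq2 called 2 at 6 h (*Rbpj* and *Hes5*) and 2 at 2 days (*Notch3* and *Hes5*), and edgeR called 0. The percentages here are those of limma, and no share of all genes called by DESeq2 or edgeR is given. Nothing particular to the 10 genes is therefore read from these counts. From 6 h to 2 days with LEV 0 were called by any of the tools, beside 2.14% of all genes with limma, and 0 had an unadjusted p under 0.05, beside 11.9%.

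The levels of 4 of the genes went with the choroid plexus markers. In each of the 4 groups with a library rich in these markers, *Notch2* and *Hey2* were higher in that library than in the other mouse of the group, as were 5.99% of all genes tested, and *Rbpj* and *Hey1* were lower, as were 10.4%. The ratio of the rich to the other library was 1.88 before SE, 1.69 in SE 6 h, 1.41 in SE + LEV 6 h and 1.03 in SE + LEV 2 days mice for *Notch2*. For *Hey2* it was 2.22, 1.99, 1.13 and 1.25, for *Rbpj* 0.57, 0.51, 0.59 and 0.66, and for *Hey1* 0.83, 0.63, 0.88 and 0.88, in the same order. SE 2 days mice were the group without such a library. *Hes5* was higher in the rich library before SE (ratio 1.81) and lower in the other 3 groups (0.99, 0.61 and 0.40). Whether carry-over of choroid plexus set any of these levels was not tested.

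**Figure D3:**
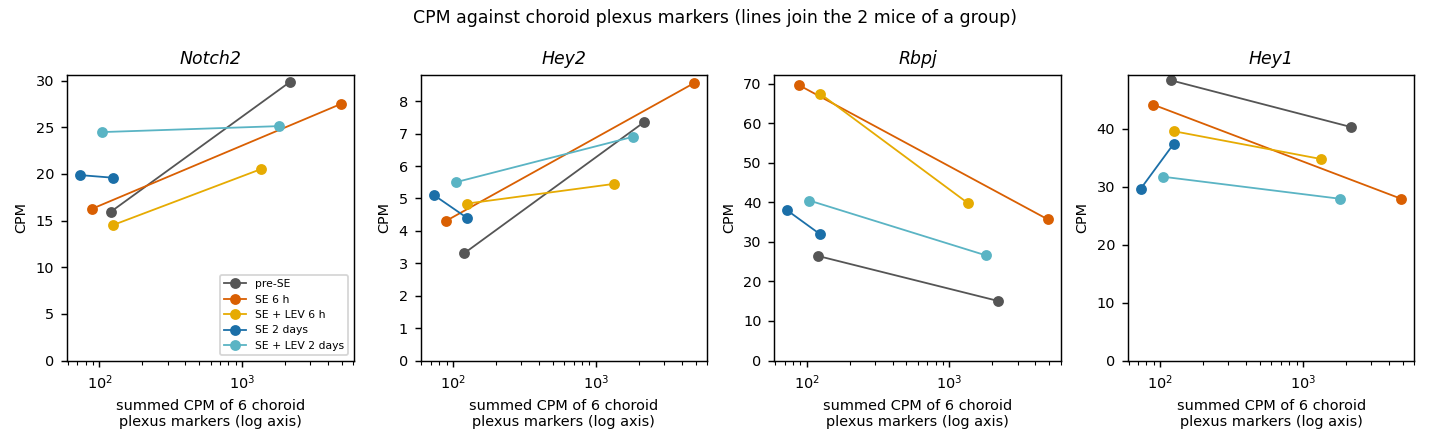
CPM of *Notch2*, *Hey2*, *Rbpj* and *Hey1* (vertical axes, from 0) against the summed CPM of 6 choroid plexus markers (log axis), with a line joining the 2 mice of each group. Lines of the 4 groups with a library rich in these markers (1346 to 4883 CPM) rise for *Notch2* and *Hey2* and fall for *Rbpj* and *Hey1*.

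The genes with the most similar profiles were listed for *Hes5* and *Notch3*, whose group means ranged most widely (by 3.09 and 1.45 on the log2 scale). For *Hes5* this range is the difference known beforehand. Likeness was the root mean square difference of log2(CPM + 0.1) over the 10 libraries after each gene's mean was subtracted. The nearest genes lie below the median over all genes by the way they are picked, so the medians give only the scale. Nearest to *Hes5* were *Gpr12* (0.50), *Il20rb* (0.51) and *Flt3* (0.52), beside a median of 1.15 over all genes. *Gpr12*, an orphan G protein-coupled receptor of neurons, was 16.52 and 17.87 CPM before SE and between 1.86 and 14.87 in the others, whereas *Il20rb* did not exceed 0.90 CPM and was near the limit of detection after SE. *Flt3*, a receptor tyrosine kinase, was 6.83 and 7.72 CPM before SE and between 1.19 and 4.76 in the others. Nearest to *Notch3* were Gm15964 (0.23), *Stat6* (0.25) and Gm6263 (0.25), beside a median of 0.73. *Stat6*, a transcription factor of interleukin-4 signalling, was 2.35 and 3.98 CPM before SE and 7.38 and 8.79 at 2 days without LEV, whereas Gm15964 did not exceed 0.16 CPM.

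The wider pathway was described with a list of 65 other genes for ligands, receptors, their processing, nuclear partners and targets, of which 60 had a row and were tested. *Eogt*, *Maml2*, *Hes2*, *Hes3* and *Hes7* were not analysed here. In SE 6 h against pre-SE mice, 3 of the 60 rose and 0 fell, and in SE 2 days against pre-SE mice 0 rose and 1 fell (limma), beside 2.76% of all genes higher and 0.202% lower at 6 h and 5.07% higher and 0.593% lower at 2 days. The median logFC of the 60 was -0.09 at 6 h and -0.10 at 2 days. With LEV against without, 0 of the 60 were called by limma, edgeR or DESeq2 at either time. At an unadjusted p under 0.05 (limma), 2 of the 60 were higher and 0 lower at each time, beside 4.58% of all genes at 6 h and 2.7% at 2 days in either direction. Of the 15851 genes tested, 184 were higher and 542 lower at 6 h, and 208 were higher and 220 lower at 2 days. Nothing particular to the 60 is read from these counts.

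The 3 genes that rose at 6 h act at different steps. *Furin*, which encodes the protease that cuts Notch receptors during their maturation, had a CPM of 22.87 and 11.60 before SE and 67.93 and 43.51 at 6 h, without overlap (logFC 1.73, SE of the logFC 0.37, adjusted p = 0.034, limma). Under LEV *Furin* was 48.74 and 42.31 CPM at 6 h, and after 2 days it was 24.85 and 40.12 without LEV against 24.16 and 24.77 under LEV. SE + LEV 2 days mice lay just below SE 2 days mice for *Furin*.

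*Maml3*, a Mastermind-like coactivator of the complex with RBPJ, had a CPM of 8.07 and 8.80 before SE and 22.64 and 24.94 at 6 h, without overlap (logFC 1.48, SE of the logFC 0.24, adjusted p = 0.011, limma). Under LEV *Maml3* was 19.94 and 19.92 CPM at 6 h, and after 2 days it was 14.84 and 15.62 without LEV against 10.97 and 11.95 under LEV. All 8 mice after SE lay above both pre-SE mice for *Maml3*, a pattern whose share over all genes is not given. SE + LEV mice lay below SE mice at each time (logFC -0.25 and -0.41, adjusted p = 1, limma).

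*Tle3*, a Groucho-type corepressor recruited by Hes proteins, had a CPM of 35.87 and 30.92 before SE and 58.50 and 94.14 at 6 h, without overlap (logFC 1.15, SE of the logFC 0.26, adjusted p = 0.048, limma). In the other groups *Tle3* was between 44.23 and 71.80 CPM. The calls were lost in 8 (*Furin*), 5 (*Maml3*) and 16 (*Tle3*) of 22 alternatives, with adjusted p of 0.00023 to 0.47, 4.6e-08 to 0.43 and 0.00063 to 0.69 and no change of sign.

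The gene that fell at 2 days was *Neurl1b*, which encodes a ubiquitin ligase for the endocytosis of Notch ligands. Its CPM before SE was 23.83 and 32.58. The 6 h values were 16.33 and 13.84 without LEV against 14.19 and 18.03 under LEV, and after 2 days 11.19 and 7.50 without LEV against 14.61 and 17.46 under LEV. *Neurl1b* was below both pre-SE mice in all 8 mice after SE, a pattern whose share over all genes is not given. Its logFC against pre-SE mice was -0.89 at 6 h (SE of the logFC 0.30, adjusted p = 0.17, limma) and -1.59 at 2 days (SE of the logFC 0.30, adjusted p = 0.013, limma). SE + LEV 2 days mice lay above SE 2 days mice without overlap (logFC 0.79, unadjusted p = 0.026, adjusted p = 1, limma). The 2 days call was lost without pre-SE mouse 2 (logFC -1.37, adjusted p = 0.11, limma), without SE 2 days mouse 2 (logFC -1.31, adjusted p = 0.14, limma) and without the choroid-rich libraries (logFC -1.37, adjusted p = 0.15, limma), within a range of 3e-05 to 0.15 over the alternatives.

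By role, the logFC in SE 6 h against pre-SE mice ran from -1.12 to 1.66 for 6 further ligands and from -0.87 to 1.73 for 10 genes of receptor cleavage, 9 of them with a negative logFC and *Furin* with the positive one. They ran from -0.15 to 1.48 for 6 genes of the nuclear complex, 5 of them positive, and from -1.07 to 1.15 for 14 corepressors, 9 of them negative. In SE 2 days mice, 5 of the 6 genes of the nuclear complex and 11 of the 14 corepressors had a negative logFC, as had all 4 genes of ligand endocytosis (-1.59 to -0.01). The 4 other targets with a row, *Hes6*, *Heyl*, *Nrarp* and *Dtx1*, ran from -0.68 to 0.43 at 6 h and from -1.09 to 0.53 at 2 days, with 0 called. Over all genes tested, 60% had a negative logFC at 6 h and 52.8% at 2 days, so these counts of signs describe the lists and nothing particular to a role is read from them. *Tle6*, counted with the corepressors, was at 0 to 0.72 CPM.

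**Figure D4:**
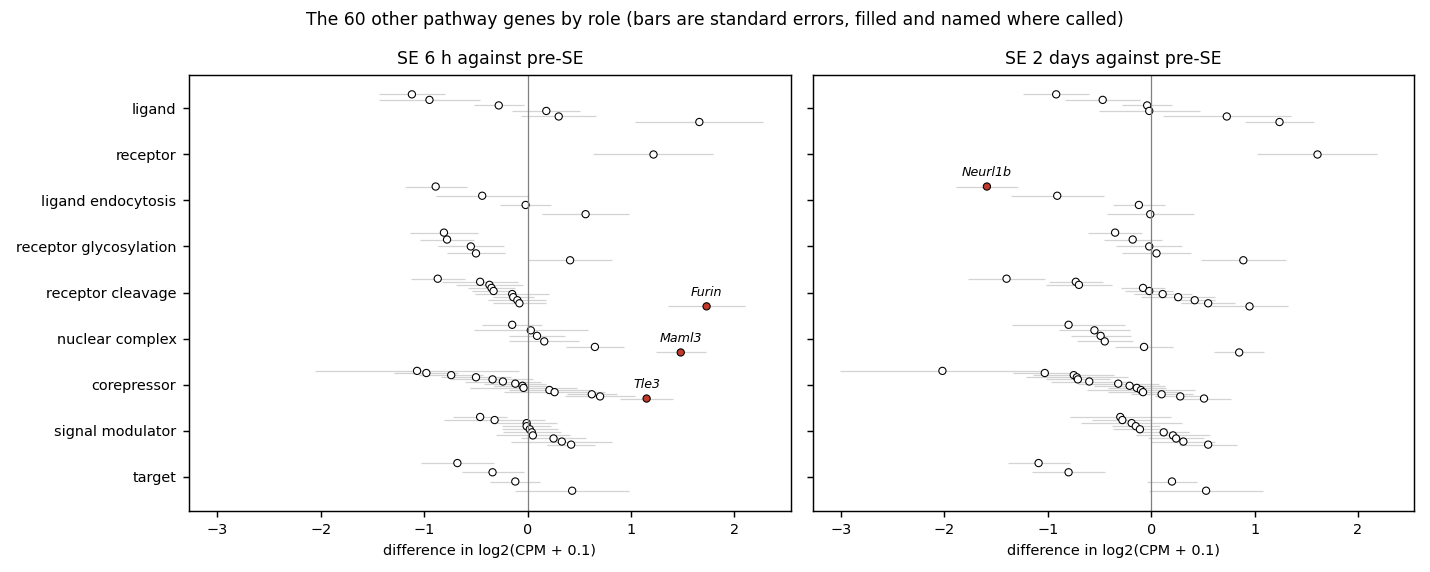
Differences in log2(CPM + 0.1) (horizontal axes) of the 60 other pathway genes by role, in SE 6 h (left) and SE 2 days (right) against pre-SE mice, with bars for the standard error. Red points are the called genes, *Furin* (1.73), *Maml3* (1.48) and *Tle3* (1.15) at 6 h and *Neurl1b* (-1.59) at 2 days, and open points were not called.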

How the data were processed

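The authors mapped CAGE tags to the mm9 mouse genome with BWA 0.7.17 and the remainder with HISAT2 2.0.5 and clustered them with RECLU (bedtools 2.12.0, edgeR 3.22.5), where clusters under 0.1 CPM, overlong ones and those not reproducible between replicates were dropped, so that weak or variable starts may be missing from a gene's value. They deposited CPM, 1 value for each gene and mouse. How clusters were summed to genes and whether strand was used are not given in the sources used here. All 10 columns were used and 0 were left out. Groups follow the treatment labels.

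Tag counts were recovered as whole multiples of the value of 1 tag, which held for 100% of values within a rounding tolerance of 0.005 CPM. The 15851 genes that reached 0.1 CPM in 2 or more libraries entered 1 limma fit (limma 3.58.1, R 4.3.3) of log2(CPM + 0.1) over the 10 libraries, with a mean for each of the 5 groups and a trend of variance on level. Tests were two-sided and adjusted by Benjamini-Hochberg over these genes. Shares of all genes called are those of limma, and none is given for edgeR or DESeq2. Nor is a share given for genes with all mice after SE above, or all below, both pre-SE mice. The 9 comparisons are those of the report. Alternatives were pseudocounts of 0.01, 0.5 and 1, no filter or at least 1 CPM, median-of-ratios rescaling, no trend, only the groups compared, replicate number as a block, edgeR 4.0.16 (quasi-likelihood) and DESeq2 1.42.0 on recovered tags, and each mouse left out. Leaving out the 4 libraries rich in choroid plexus markers (over 500 CPM) and crossing the block were added after the data were seen. The fit and the recovery were tested on simulated data.

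The 10 genes, the pathway and marker lists and the tests were chosen with earlier results of these data known. Named were the 10 genes, pathway genes called in at least 1 comparison, the 3 nearest profiles of the 2 genes with the widest range of group means, and marker genes where they were called or at 0. Gene positions are from GENCODE on mm9, to which all 15900 identifiers matched, and promoter windows from RefSeq on GRCm38.p6. Protein features of the Hes and Hey genes were planned and not analysed here. Summaries used pandas 2.3.3 and numpy 2.4.6 in Python 3.11.15, and plots matplotlib 3.10.9.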

Additional observations from a re-analysis of the deposited data

How the results depend on the processing

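Differences were recomputed under the alternatives for 16 pairs of a gene and a comparison, those of the 10 genes with an unadjusted p under 0.05 and of the 4 called pathway genes. The 16 include *Hes5* in SE 2 days against pre-SE mice, whose difference was known beforehand. Its part in the totals that follow is a description only. None of the 16 changed sign, and their recomputed values kept their side of the threshold 300 times, lost a call 44 times and gained a call 11 times. The other differences of single genes were not followed in this way, and signs that a rescaling changed among them are given at the end. Of the 10 genes, 1 was called in SE 6 h against pre-SE mice. The count was 0 with the replicate block, 0 without the mean-variance trend, 2 with DESeq2 (*Hes5* and *Rbpj*), 0 without the 4 libraries rich in choroid plexus markers and 0 to 1 with each mouse left out, being 0 without any mouse of the pre-SE, SE 6 h and SE + LEV 6 h groups. In SE 2 days against pre-SE mice the count of 1 was *Hes5*, whose difference there was known when the list was drawn up, so the counts are a description. It became 2 with edgeR (*Notch1* added), 3 with DESeq2 (*Notch1* and *Notch3* added), 0 without the choroid-rich libraries and 0 to 2 with each mouse left out, being 0 without pre-SE mouse 2 or SE 2 days mouse 2 and 2 without SE + LEV 6 h mouse 1 (*Notch3* added) or SE + LEV 2 days mouse 2 (*Notch1* added). Against pre-SE mice DESeq2 called 2 rather than 0 in SE + LEV 6 h mice and 2 rather than 0 in SE + LEV 2 days mice, where leaving out single mice gave 0 to 1 (*Hes5*, without SE + LEV 2 days mouse 2). Of the 60 pathway genes, the count of 3 in SE 6 h against pre-SE mice became 1 with only the groups compared, 0 without the choroid-rich libraries and 0 to 3 with each mouse left out, being 0 without pre-SE mouse 2 or SE 6 h mouse 2 and 1 without the other mouse of these groups or either SE + LEV 6 h mouse. The count of 1 in SE 2 days mice became 2 without the trend, 7 with DESeq2, 0 without the choroid-rich libraries and 0 to 3 with each mouse left out, being 0 without pre-SE mouse 2 or SE 2 days mouse 2 and 3 without SE 2 days mouse 1 or either SE + LEV 2 days mouse. DESeq2 also called 3 pathway genes in SE + LEV 6 h against pre-SE mice, 1 in SE 2 days against SE 6 h mice and 1 in SE + LEV 2 days against SE + LEV 6 h mice, where leaving out single mice gave 0 to 1 (*Dlk2*, without SE + LEV 2 days mouse 2). Apart from leaving out mice, where fewer samples enter the fit, the cause of these changes was not tested. A group left with 1 mouse is assumed to vary like the others. Same-numbered mice are different animals, and the correlations of their deviations ran from -0.44 to 0.34, so that the numbers were not taken as pairs. The block took *Hes5* at 6 h to an adjusted p of 0.051 (limma) and *Tle3* to 0.068 (limma), leaving 2 of the 3 pathway genes called. Crossing the numbers in the comparisons of SE + LEV 2 days with SE 2 days and with pre-SE mice gave 0 calls among the 10 genes and 0 among the 60. Rescaling by the median of ratios moved the median of all genes by 0.13 on the log2 scale in SE 6 h against pre-SE mice and by at most 0.10 in size elsewhere. It changed the sign of *Notch2* there, of *Dll1* and *Rbpj* in SE + LEV 6 h against SE 6 h mice and of *Jag1* in SE + LEV 2 days against SE + LEV 6 h mice, each of them at most 0.06 in size. With 2 mice a group, differences such as those of *Notch1*, *Notch3* and *Rbpj* could not be settled at the threshold.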
